A study of Mus musculus with 14 samples.

Results

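The liver makes most of the clotting and complement proteins of blood plasma, and 38 genes for such proteins were followed across 14 liver RNA-seq libraries of mice. The 38 were chosen by name, as a module of secreted coagulation and complement factors with a few carrier proteins of plasma. No measured value was a criterion, but earlier results of these data were known when they were chosen. They are 38 of the 54532 genes in the deposited table, and all 38 were among the 17874 genes that passed a filter on low counts. They were divided by role into 10 groups. Carrier proteins of plasma were Alb, Ttr, Trf, Ahsg and Fetub. Fibrin was represented by Fga, Fgb, Fgg and F13b, the vitamin K-dependent proteins by F2, F7, F9, F10, Proc and Pros1, and the contact system by F11, F12, Klkb1 and Kng1. F5 is a cofactor. Inhibitors and fibrinolysis comprised Serpinc1, Serpind1, Serpinf2, Plg and Cpb2. Complement comprised C3, Cfb and Cfi, the terminal components C6, C8a, C8b, C8g and C9, and the lectin pathway genes Mbl1, Mbl2, Masp1 and Masp2. The remaining gene, C5ar1, encodes a receptor of myeloid cells and not a secreted protein, so the module's name does not cover it.

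The study compared livers of 52-week-old mice that lack Abcb11, the canalicular bile salt export pump, with livers of C57BL/6J wild-type mice. The 5 groups were liver of Abcb11-/- males (3 libraries), tumour tissue of Abcb11-/- females (3), non-tumour tissue of Abcb11-/- females (3), liver of wild-type males (3) and liver of wild-type females (2, numbered 2 and 3; number 1 was not analysed here). The labels give no further treatment, do not say how the Abcb11 allele was made or which type the tumours were, and do not say whether the male livers carried tumours. Abcb11 RNA was lower in every knockout library (17.9 to 104 CPM, the count scaled to a common library size) than in every wild-type library (270 to 488 CPM). Libraries held 14745140 to 19480538 counts, of which mitochondrially encoded genes took 15.7% to 42.2%. The 42.2% was wild-type male 3. The 10 hepatocyte markers examined, among them Cps1, Ass1 and Arg1, summed to 4446 to 17350 CPM, so liver parenchyma was present in every library. The study design gives 3 mice per group but the labels do not tie a library to a mouse, so p-values measure the spread between these libraries.

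Clotting proceeds through a chain of proteases that each cut the next, several of which need a vitamin K-dependent modification before they can bind membranes, and ends with thrombin turning fibrinogen into fibrin. Serpins hold the chain in check and plasmin dissolves the clot. Complement is a parallel chain in which lectins, antibodies or spontaneous turnover lead to cleavage of C3, and the terminal components then assemble into a pore. Hepatocytes secrete nearly all of these proteins, and the intestinal uptake of vitamin K depends on bile salts reaching the gut.

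Promoter windows of 5 genes are shown first, because the 3 fibrinogen genes lie side by side on chromosome 3 and varied together, and because F13b differed between wild-type sexes and C6 between the sexes in both genotypes. The windows are RefSeq sequences of build GRCm38.p6, from 250 bases before to 50 bases after the annotated start (300 bases each), printed on the gene's own strand from its 5′ end. Capitals mark matches on either strand to an HNF1 half-site (GTTAAT), a C/EBP site (TTGCNNAA) or the core of an interleukin-6 response element (CTGGGAA).
Fga, chr3:83025903-83026202, plus strand: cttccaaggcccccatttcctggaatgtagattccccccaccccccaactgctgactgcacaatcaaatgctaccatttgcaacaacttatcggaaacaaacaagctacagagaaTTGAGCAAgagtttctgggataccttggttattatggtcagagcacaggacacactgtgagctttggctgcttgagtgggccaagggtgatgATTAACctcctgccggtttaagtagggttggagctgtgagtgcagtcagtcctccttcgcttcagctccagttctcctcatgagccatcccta
Fgb, chr3:83049814-83050113, minus strand: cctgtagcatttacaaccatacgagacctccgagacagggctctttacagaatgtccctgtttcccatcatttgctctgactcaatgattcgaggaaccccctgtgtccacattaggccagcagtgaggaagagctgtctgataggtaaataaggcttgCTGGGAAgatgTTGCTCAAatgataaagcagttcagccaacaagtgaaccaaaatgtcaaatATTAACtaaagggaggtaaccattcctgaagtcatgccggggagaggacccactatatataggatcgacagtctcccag
Fgg, chr3:83007474-83007773, plus strand: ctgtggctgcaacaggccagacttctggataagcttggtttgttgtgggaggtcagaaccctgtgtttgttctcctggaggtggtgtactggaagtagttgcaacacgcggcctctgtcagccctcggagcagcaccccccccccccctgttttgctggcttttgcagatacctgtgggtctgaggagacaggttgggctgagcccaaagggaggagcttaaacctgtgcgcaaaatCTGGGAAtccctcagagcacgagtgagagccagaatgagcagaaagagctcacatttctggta
F13b, chr1:139501457-139501756, plus strand: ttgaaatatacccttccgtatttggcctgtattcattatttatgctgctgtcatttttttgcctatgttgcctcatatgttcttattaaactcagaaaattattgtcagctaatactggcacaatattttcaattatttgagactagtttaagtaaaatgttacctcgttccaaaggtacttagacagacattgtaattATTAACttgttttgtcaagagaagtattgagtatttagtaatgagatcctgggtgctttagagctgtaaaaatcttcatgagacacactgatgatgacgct
C6, chr15:4726960-4727259, plus strand: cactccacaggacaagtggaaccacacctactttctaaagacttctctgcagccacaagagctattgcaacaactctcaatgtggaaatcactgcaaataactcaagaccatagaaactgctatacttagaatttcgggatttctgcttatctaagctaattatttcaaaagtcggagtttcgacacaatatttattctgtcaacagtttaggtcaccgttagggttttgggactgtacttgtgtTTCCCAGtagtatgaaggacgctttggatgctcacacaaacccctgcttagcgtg
The HNF1 half-site began 43 bases before the start in Fga, 29 before it in Fgb and 51 before it in F13b. The C/EBP pattern began 135 bases before the start in Fga and 80 in Fgb. The interleukin-6 core began 91 bases before the start in Fgb, 13 in Fgg and 5 in C6. RefSeq windows were held for 30 of the 38 genes, 32 windows in all. The HNF1 half-site occurred in 7 of these 32 windows (21.9%), against 7.1% of all 32851 windows. The C/EBP pattern occurred in 11 (34.4%), against 10.8% of all windows, and the interleukin-6 core in 6 (18.8%), against 11.1%. Of 3 further patterns searched on both strands, a STAT pattern (TTCNNNGAA) occurred in 6 windows (18.8%, against 8.3% of all), a D-box pattern (TTATGNAA) in 3 (9.38%, against 3.38%) and the E-box CACGTG in 0, against 7.15%. The STAT match overlapped the interleukin-6 core in F9 and Masp2, and the D-box match overlapped the C/EBP match in C9. These are matches of letters and not measured binding sites.

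Levels per kilobase of exon spanned a wide range. Means over all 14 libraries were 15624 CPM per kilobase for Alb, 2707 for Ttr, the carrier of thyroxine and retinol-binding protein, and 1473 for Ahsg, the mineral-binding fetuin-A. The high-molecular-weight kininogen gene Kng1 followed at 886, C3 at 779 and Fgb at 551. Among the lowest were C6 at 13.7, F11 at 13.2, Pros1 at 11.9 and Masp1 at 9.78. C5ar1 stood at 0.403 and Cfb, the complement factor B gene, at 0.350. In the GENCODE annotation of GRCm38, 79.5% of Cfb exon bases are also exon of Gm20547, which had 0 counts in every library. Trf, the iron carrier transferrin, shares 63.5% of its exon bases with Gm20425, and Klkb1 shares 43.2% with Gm45753. Gm20425 had 0 counts in every library and Gm45753 had 0 to 3, beside 11065 to 54460 counts for Trf. Reads in these shared bases were thus not counted for both genes, but whether they were dropped is not given in the sources used here. If they were, the levels of Cfb, Trf and Klkb1 are too low, and the last place of Cfb is uncertain. Masp2 (54.9%) and Serpinc1 (34.4%) overlap opposite-strand genes, and their levels are uncertain as well. Together the 38 genes took 2.88% of counts in wild-type male 3 and 10.8% in non-tumour liver 1, and Alb alone took 1.55% to 5.79%.

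**Figure D1:**
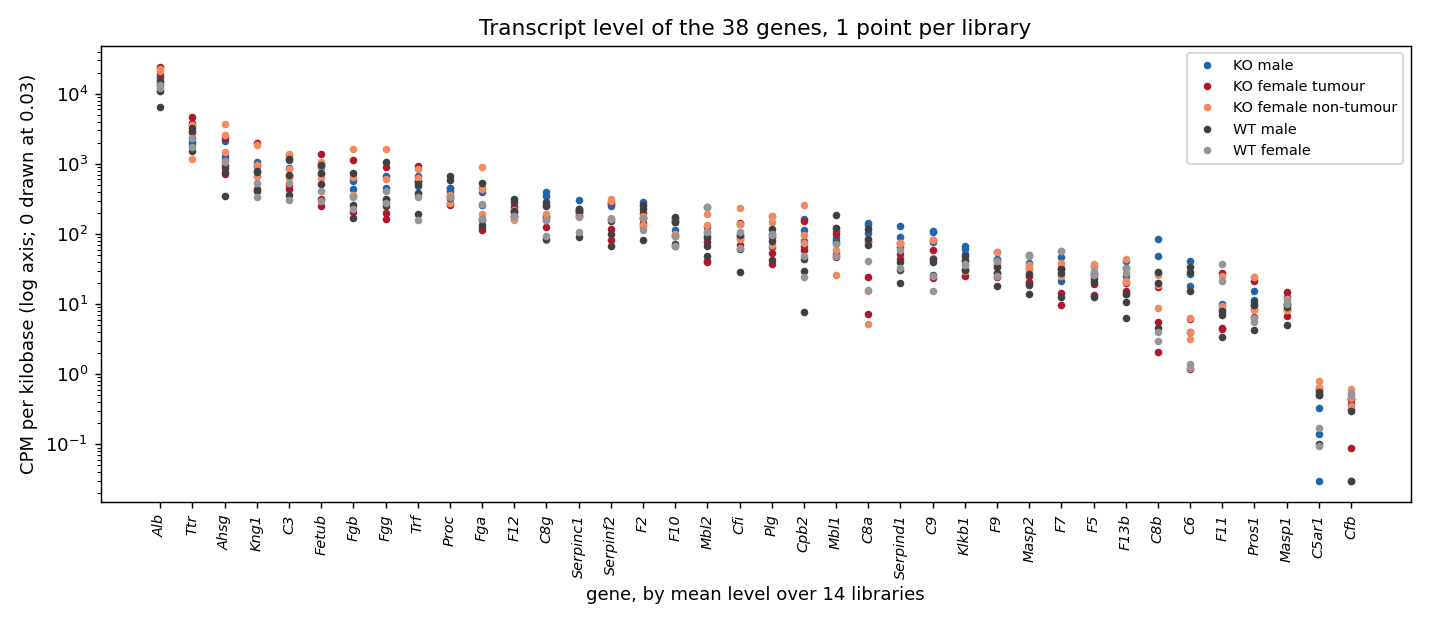
Level of each of the 38 genes in CPM per kilobase of exon, on a log axis, with 1 point for each library, coloured by group. Alb leads at a mean of 15624 and C5ar1 and Cfb stand last at 0.403 and 0.350. The Cfb level may be too low, because 79.5% of its exon bases are shared with Gm20547. A value of 0 is drawn near the bottom of the plot.

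Within a group, the libraries differed in the same direction for most of the genes. Knockout male 3 had the highest level of its group for 29 of 38 genes (76.3%, against 38.2% of all genes tested), tumour 1 for 29 (against 35.6%) and non-tumour liver 1 for 27 (71.1%, against 28.2%). Wild-type male 1 was highest of its group for 27 genes and wild-type female 2 for 28. Wild-type male 3 was the lowest of its group for 34 of 38 genes (89.5%, against 28.6% of all genes tested). The 16 other acute-phase genes examined, such as Hp and Saa and Orm genes, summed to 32650 CPM in tumour 1, 37570 CPM in non-tumour liver 1 and 30450 CPM in wild-type male 1, and to at most 14140 CPM in each of the other 11 libraries. The haptoglobin gene Hp alone gave 15300, 15021 and 24080 CPM in these 3 libraries. Saa1 had 1299, 2685 and 243 CPM in them, so wild-type male 1 differed in make-up from the other 2. Their part in the order of the libraries was not tested.

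**Figure D2:**
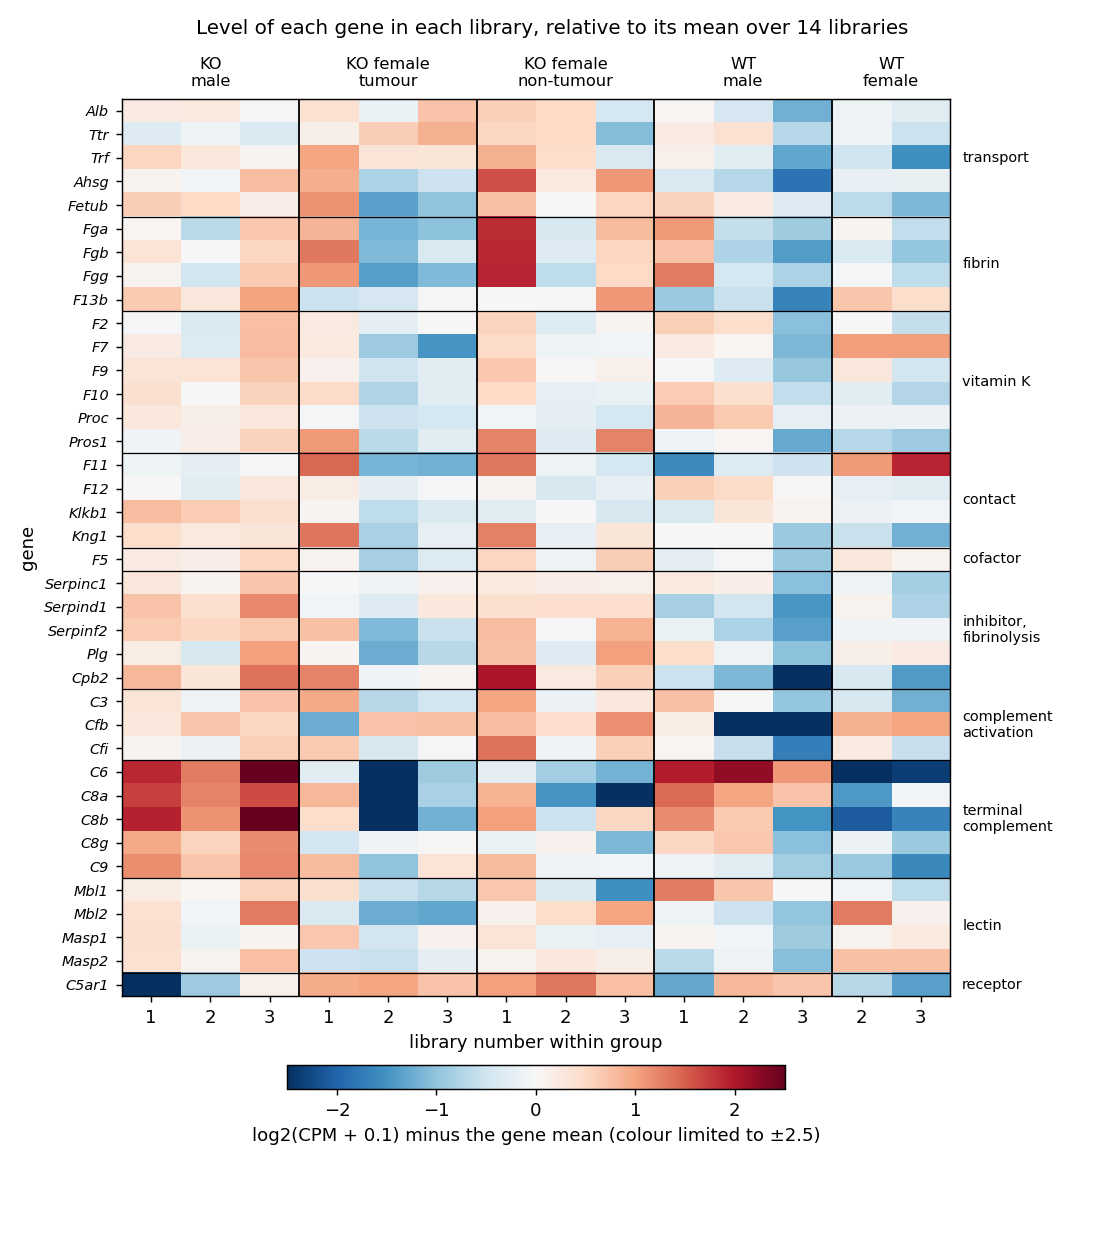
Heat map of the 38 genes (rows, by role) in the 14 libraries (columns, by group). Colour is log2(CPM + 0.1) minus the gene's mean over libraries, limited at 2.5 in either direction; whole columns such as wild-type male 3, the lowest of its group for 34 genes, and non-tumour liver 1 stand apart from their neighbours.

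In knockout males against wild-type males, 7 of the 38 genes rose and none fell. They were F13b, F9, Serpind1, Serpinf2, Cpb2, C9 and Masp2, which belong to fibrin stabilisation, the vitamin K-dependent proteases, the inhibitors of clotting and fibrinolysis, terminal complement and the lectin pathway. The test was edgeR's quasi-likelihood F test with Benjamini-Hochberg adjustment over all 17874 genes at 0.05. It called 20.6% of all genes, 14.3% higher and 6.32% lower, so the 18.4% of the 38 that were higher lies near the share of all genes. The log2 fold change was above 0 for 31 of 38 genes with a median of 0.58, beside a median of 0.11 over all genes tested, 54.4% of which were above 0. The count depended on single libraries, and the shares of all genes called with a library left out are not given here. There were 2 genes that passed without knockout male 3 or without wild-type male 3, 3 without knockout male 1 or wild-type male 2, and 4 without non-tumour liver 3 or wild-type female 3. A score of evening over morning clock genes was 2.39 to 3.19 in knockout males and −1.86 to −1.37 in wild-type males, and with this score as a covariate 2 genes passed, Cpb2 and F11, and the median was 1.28. Clock phase and genotype cannot be told apart in males.

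In tumour tissue against wild-type female liver, 3 genes fell and none rose. These were F7, Mbl2 and Masp2, the trigger protease of clotting and a pair of lectin pathway genes. Of all genes tested edgeR called 9.61%, 3.94% higher and 5.67% lower. Of the 38 genes, 25 had a log2 fold change above 0, with a median of 0.27 beside 0.03 over all genes. Without tumour 2 the 3 falls were lost, and C6 and C9 passed as rises. Trf and C9 were gained as rises with the clock covariate or without wild-type male 3. DESeq2 added Trf, C6 and C9 as rises, and limma-voom added Trf and C9 as rises and F13b and F11 as falls. The shares of all genes called when a fit was changed are not given here. No gene passed without wild-type female 2 or without wild-type female 3, 1 passed without tumour 3, and 5 passed without wild-type male 3.

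In non-tumour knockout liver against wild-type female liver, none of the 38 passed in edgeR, where 4.16% of all genes did, 1.9% higher and 2.26% lower. At an unadjusted p under 0.05 there were 9 of the 38 genes, and 3798 of all 17874 genes tested. DESeq2 called 5 of the 38 and limma-voom 8, and edgeR called 2 without tumour 2 and 1 without non-tumour liver 2. The shares of all genes called in those fits are not given here. The log2 fold change was above 0 for 29 of 38, with a median of 0.54 beside −0.00 over all genes. Tumour and non-tumour tissue are each set here against the same pair of wild-type female libraries. In tumour against non-tumour tissue none of the 38 passed, and neither did any other gene, so that 0% of all genes were called by edgeR. The 2 tissues were tested as independent groups, and no paired test was run. DESeq2 and limma-voom also called none of the 38, and 5 had an unadjusted p under 0.05, as did 1217 of all genes. Yet 31 of the 38 had a log2 fold change below 0, with a median of −0.37 beside −0.01 over all genes. Between libraries of equal number, 30, 34 and 27 of the 38 genes were lower in the tumour library of numbers 1, 2 and 3.

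**Figure D3:**
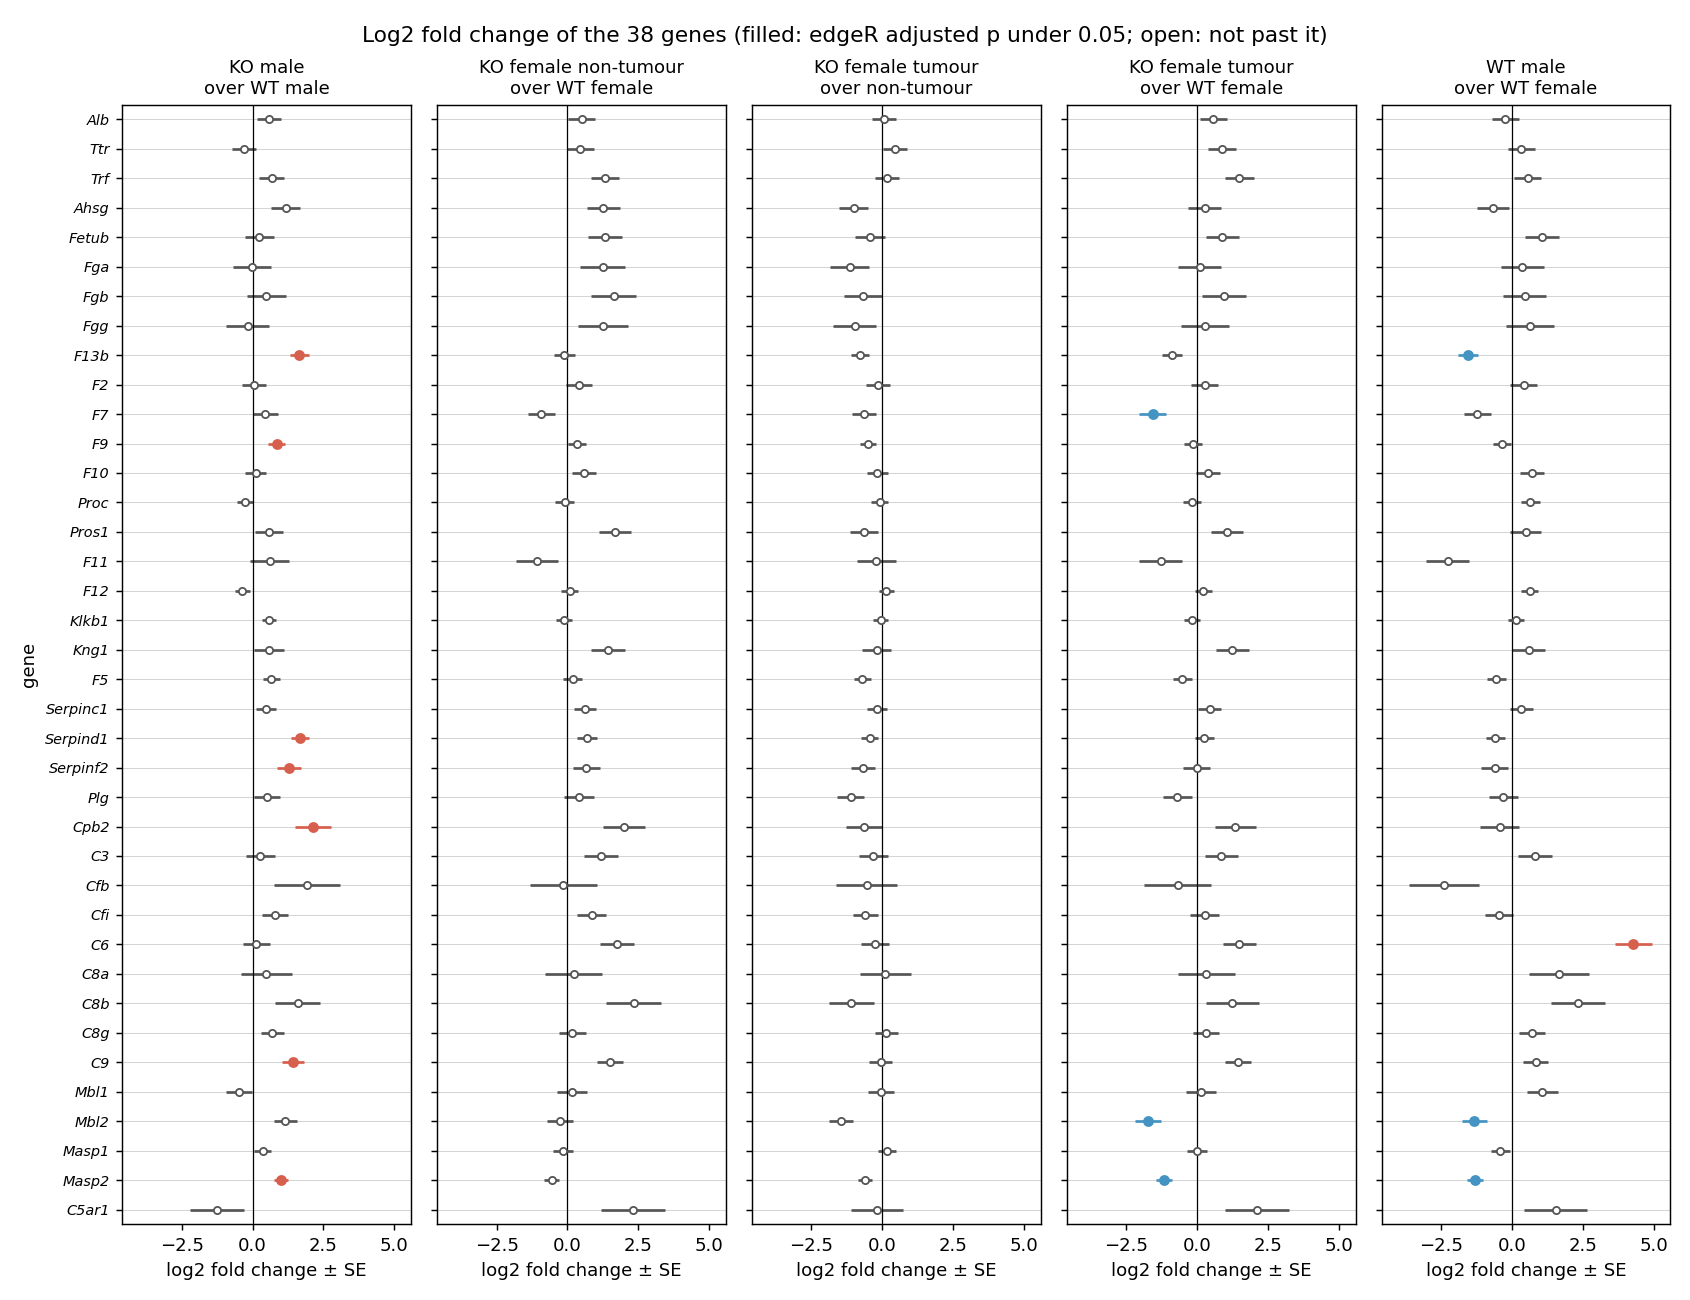
Log2 fold change with its standard error for each of the 38 genes in 5 comparisons, with the group named first in each panel title as the numerator. Filled points passed edgeR's test at an adjusted p of 0.05: 7 points are filled in knockout against wild-type males, 3 in tumour against wild-type female liver, 4 between wild-type sexes and none in the panels of non-tumour liver against wild-type females and of tumour against non-tumour.

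Between the sexes, wild-type males differed from wild-type females in 4 genes: C6 was higher in males and F13b, Mbl2 and Masp2 were lower. Genes called in either direction made up 23.1% of all genes tested by edgeR, 7.03% higher and 16.1% lower in males. In knockout males against non-tumour knockout females C6 was the 1 gene of the 38 that differed, higher in males. Here edgeR called 0.392% of all genes, 0.207% higher and 0.185% lower in males. The knockout effect itself was lower in non-tumour females than in males for F13b and Masp2. That difference of differences was called for 10.9% of all genes tested, 2.2% with the female effect higher and 8.68% with it lower. Wild-type males enter the first and the last of these comparisons, and the group means of F13b and Masp2 were lowest in them. In wild type the clock score was −1.86 to −1.37 in males and 0.99 to 1.48 in females. The 38 had a median of 0.36, or −0.35 with the score as a covariate, so clock phase and sex cannot be told apart in wild type. Counts with a library left out follow without the shares of all genes called in those fits. The sex difference in wild type numbered 1 gene without wild-type female 3 and 7 without tumour 1 or wild-type male 3. The difference of the knockout effect numbered 0 genes without non-tumour liver 1 or wild-type female 3, and 1 without any one of tumour 2, non-tumour liver 2 or 3, wild-type female 2, knockout male 1 or 3, and wild-type male 1 or 3.

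F13b, the carrier subunit that holds the fibrin-crosslinking factor XIII in plasma (ENSMUSG00000026368, GRCm38 chromosome 1, 139501702 to 139523752), was the 1 gene of the fibrin group that passed. It had 81.9, 63.8 and 105 CPM in knockout males, 35.9, 38.9 and 51.0 in tumours and 51.7, 53.5 and 110.5 in non-tumour knockout liver. In wild-type males it had 27.6, 35.6 and 16.3 CPM and in wild-type females 84.2 and 70.6 CPM. Every wild-type male library lay below every library of the other 4 groups, the highest (35.6 CPM) just under the lowest tumour (35.9 CPM). F13b rose in knockout males over wild-type males (log2 fold change 1.66 ± 0.34, SE; edgeR adjusted p = 0.0035; n = 3 each) and was lower in wild-type males than in wild-type females (−1.55 ± 0.36, edgeR adjusted p = 0.00757). In non-tumour knockout females against wild-type females it was −0.11 ± 0.36 (edgeR adjusted p = 0.901, 95% interval −0.88 to 0.67). The difference between these knockout effects, females minus males, was −1.76 ± 0.49 (edgeR adjusted p = 0.032). Of the 25 alternative settings, the male difference was lost with the clock score as a covariate alone, where its log2 fold change was 0.89. The female-minus-male difference was lost under 15, among them the settings without any one of tumour 2, non-tumour liver 1 or 2, either wild-type female, knockout male 1 or 3 and wild-type male 1 or 3. The wild-type sex difference was lost without wild-type female 3, at an adjusted p of 0.0508, and with the clock covariate, at a log2 fold change of −1.06 and an adjusted p of 0.0862.

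**Figure D4:**
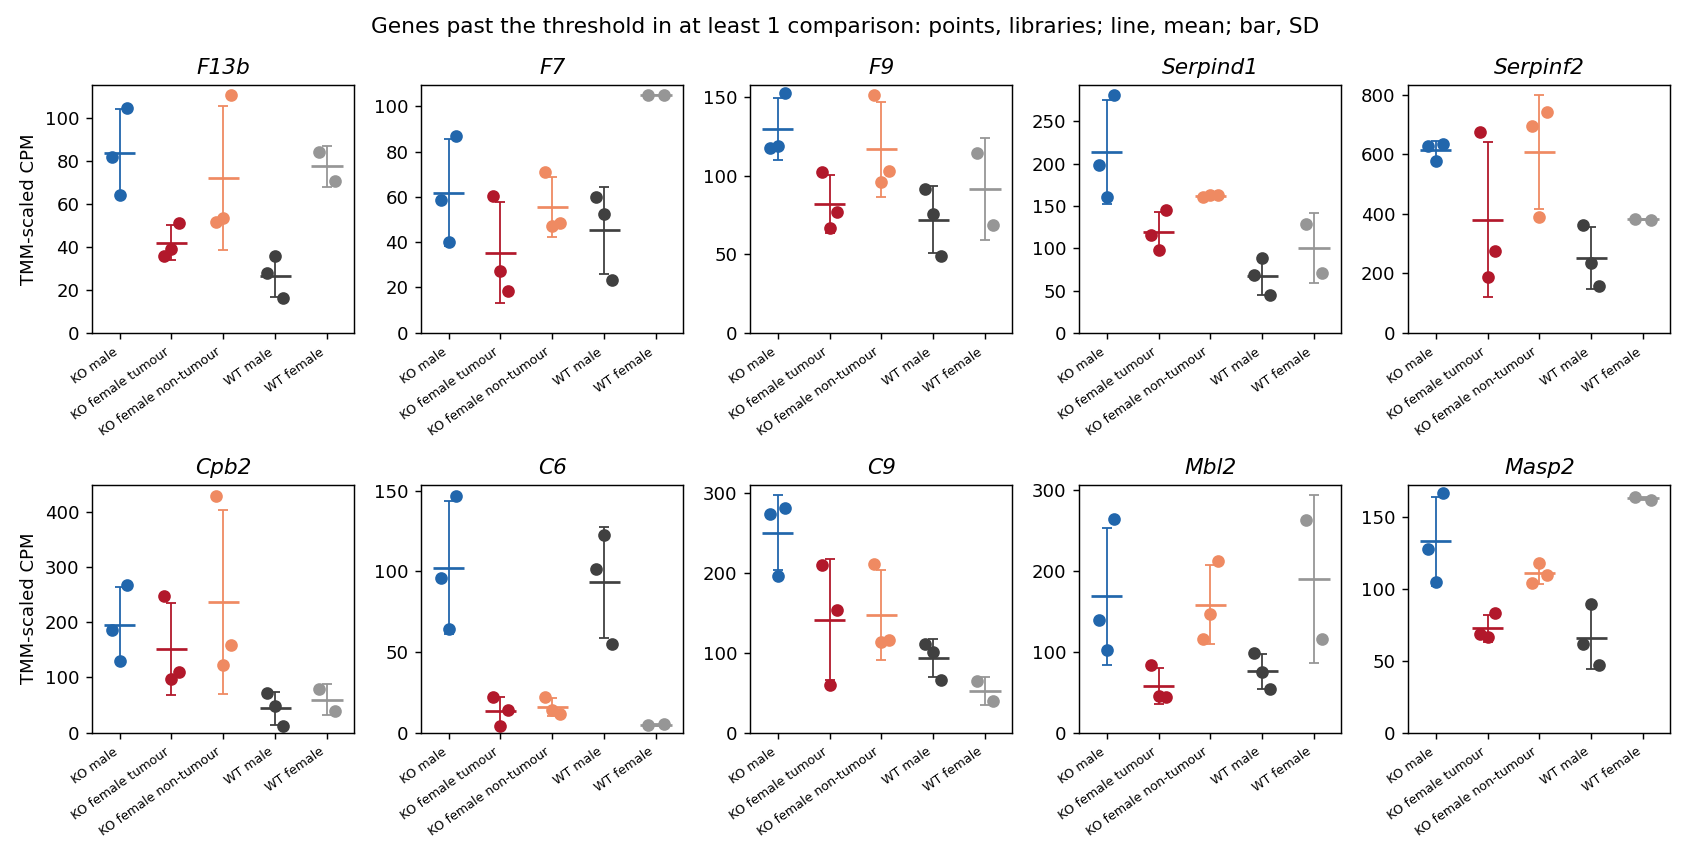
CPM of the 10 genes that passed in any comparison, 1 panel each, with a point for every library, a bar at the group mean and a whisker of 1 SD. In F13b the 3 wild-type males sit at 16.3 to 35.6 CPM, and in C6 the males of both genotypes sit at 55.2 to 147 CPM above all females at 4.21 to 22.2 CPM.

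The fibrinogen chains Fga, Fgb and Fgg, whose products join into the soluble precursor of fibrin, passed in no comparison. Fgb had 2149, 1681 and 2421 CPM in knockout males, 4268, 790.4 and 1309 in tumours and 6304, 1369 and 2459 in non-tumour knockout liver. Fgb stood at 2802, 1001 and 647 CPM in wild-type males and 1307 and 869 CPM in wild-type females. Tumour 1, non-tumour liver 1 and wild-type male 1 were the highest of their groups, the same libraries in which the sum of the other acute-phase genes was high. Non-tumour liver lay above wild-type females by a small gap and the other groups compared overlapped. The log2 fold change in knockout over wild-type males was 0.49 ± 0.67 for Fgb, −0.02 ± 0.68 for Fga and −0.17 ± 0.76 for Fgg. Their 95% intervals were −0.95 to 1.93, −1.47 to 1.44 and −1.80 to 1.46, wide enough to hold changes in either direction. Levels per kilobase ranged 8.01-fold over the libraries for Fga, 9.75-fold for Fgb and 9.81-fold for Fgg.

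The chains also differed in their proportions. Fgb made up 37.1% to 51.6% of the summed fibrinogen level per kilobase in the 9 knockout libraries, and 30.6% to 35.1% in the 5 wild-type libraries. By library its share was 44.0%, 48.5% and 37.1% in knockout males, 45.1%, 42.8% and 51.6% in tumours and 39.6%, 43.6% and 38.1% in non-tumour knockout liver. In wild-type males it was 31.7%, 35.1% and 30.6%, and in wild-type females 33.5% and 34.0%. The lowest knockout library thus lay above the highest wild-type library, in both sexes and in tumour and non-tumour tissue. This ratio was singled out after its values were seen, so it is given as a description with no test.

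**Figure D5:**
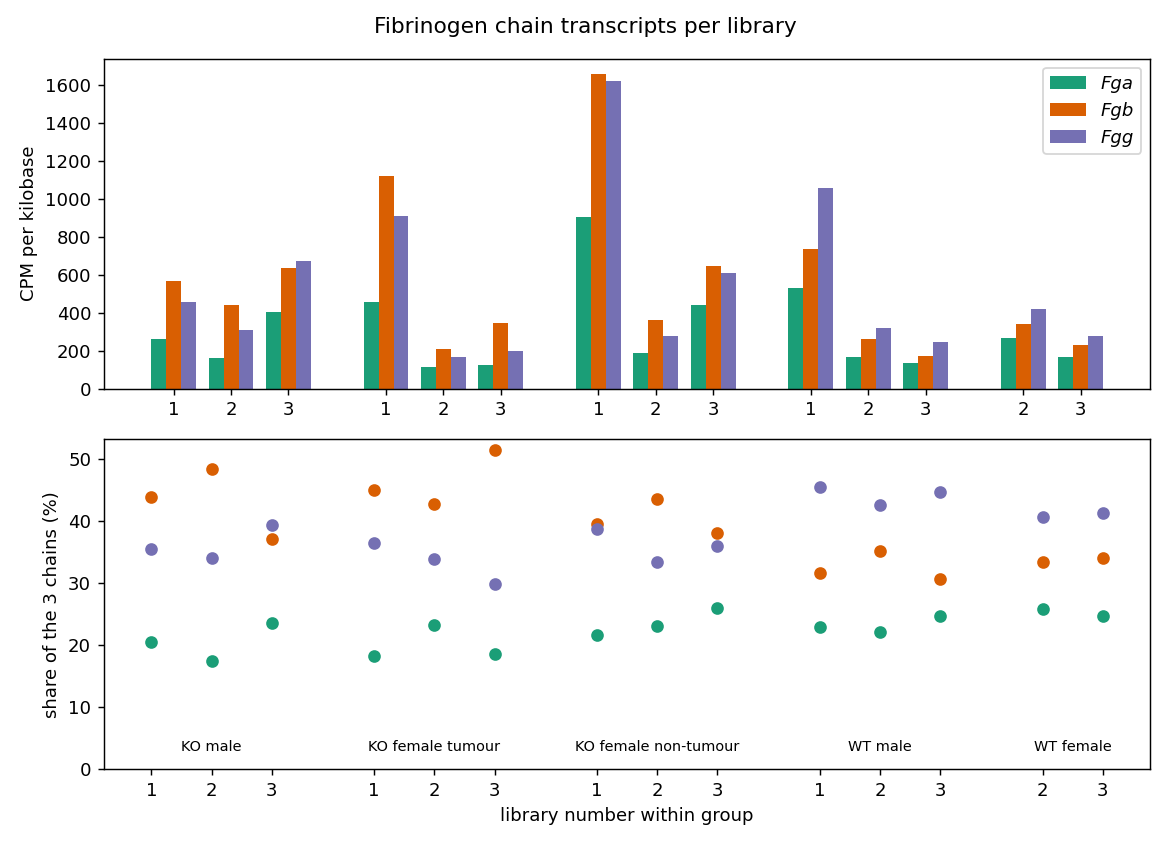
Fibrinogen by library: bars give the level of Fga, Fgb and Fgg in CPM per kilobase of exon, and points give the share of each chain in their sum in percent. The level follows the library, with peaks in tumour 1, non-tumour liver 1 and wild-type male 1, while the Fgb share is 37.1% to 51.6% in knockout and 30.6% to 35.1% in wild-type libraries.

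Of the vitamin K-dependent proteins, F9 and F7 passed in 1 comparison each. F9, the protease missing in haemophilia B, had 118, 119 and 153 CPM in knockout males and 91.4, 75.6 and 49.1 CPM in wild-type males, with no overlap. It rose, with a log2 fold change of 0.85 ± 0.29 (edgeR adjusted p = 0.0488, n = 3 each). This call was close to the threshold: it held under 3 of 25 alternative settings, was kept without tumour 1 or wild-type female 2, and was lost without any 1 of the other 12 libraries, at adjusted p of 0.0529 to 0.227. In females F9 had 103, 66.9 and 77.3 CPM in tumours, 151, 96.1 and 103 in non-tumour liver and 115 and 68.9 CPM in wild type, which overlapped.

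F7, which starts clotting once it binds tissue factor, had 60.5, 27.2 and 18.3 CPM in tumours, 71.0, 47.2 and 48.6 in non-tumour liver and 105 and 105 CPM in wild-type females. Each tumour library lay below both wild-type libraries, and F7 fell in tumours against wild-type female liver, with a log2 fold change of −1.57 ± 0.47 (edgeR adjusted p = 0.0493). The call held under 11 of 25 alternative settings, and was kept without tumour 1, knockout male 2 or 3 or wild-type male 3. It was lost without any 1 of the other 10 libraries, at adjusted p of 0.0539 to 0.289. Males overlapped, with 58.8, 40.1 and 86.9 CPM in knockouts and 59.9, 52.5 and 23.4 CPM in wild type.

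Proc, the precursor of the anticoagulant protease activated protein C, had the highest level per kilobase of this group. Proc stood at 705, 649 and 716 CPM in knockout males, 569, 407 and 429 in tumours and 560.0, 499.6 and 432 in non-tumour liver. Wild-type males had 1060.0, 926 and 506 CPM and wild-type females 532 and 529 CPM. It was among the steadiest of the genes, with a 2.60-fold range over the 14 libraries, and knockout males lay above every female library while the male groups overlapped. Pros1, the cofactor of activated protein C, had 99.7, 33.8 and 99.5 CPM in non-tumour liver and 25.8 and 22.5 CPM in wild-type females. Those groups did not overlap, but the log2 fold change of 1.69 ± 0.57 did not pass (edgeR adjusted p = 0.111). In tumours Pros1 had 88.1, 26.6 and 35.2 CPM, in knockout males 39.6, 47.6 and 63.5 CPM and in wild-type males 39.5, 44.0 and 17.7 CPM. F2, prothrombin, ranged over 378 to 1312 CPM and F10, the protease that activates it, over 182 to 477 CPM, and neither passed in any comparison.

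No contact-system gene passed. Kng1, the source of bradykinin, had 3431, 3015 and 3126 CPM in knockout males, 6402, 1447 and 2210.0 in tumours and 6106, 2211 and 3142 in non-tumour liver. In wild-type males Kng1 had 2558, 2507 and 1328 CPM and in wild-type females 1716 and 1099.9 CPM. Tumour 1 and non-tumour liver 1 exceeded all other libraries, and knockout males lay above wild-type males without overlap. Non-tumour liver lay above wild-type females in every library, at a log2 fold change of 1.44 ± 0.60 (edgeR adjusted p = 0.182). Kng1 shares 4.93% of its sequence exactly with its paralogue Kng2, so reads there are uncertain. F11, the protease that activates F9, ranged over 7.50 to 85.1 CPM and was nearest to the threshold between wild-type sexes, at −2.27 ± 0.77 in males over females (edgeR adjusted p = 0.0529). F12, which starts the contact pathway, was the steadiest of the 38 at a 2.0-fold range (311 to 620.0 CPM), and Klkb1, prekallikrein, ranged over 133 to 353 CPM.

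F5, the cofactor of the prothrombin-cleaving complex, had 207, 201 and 263 CPM in knockout males, 191, 101 and 142 in tumours and 262, 165 and 277 in non-tumour liver. Wild-type males had 155, 177 and 92.9 CPM and wild-type females 221 and 192 CPM. Knockout males lay above wild-type males without overlap, at 0.66 ± 0.31, but F5 did not pass there (edgeR adjusted p = 0.139).

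The inhibitors and fibrinolysis genes held 3 of the 7 genes that rose in knockout males, 3 of 5 (60%) where 14.3% of all genes were called higher. The log2 fold changes of all 5 were above 0, with a median of 1.29, where 54.4% of all genes were above 0. Serpind1, heparin cofactor II, an inhibitor of thrombin, had 199, 161 and 281 CPM in knockout males and 67.9, 88.1 and 44.5 CPM in wild-type males. It rose, with a log2 fold change of 1.68 ± 0.31 (edgeR adjusted p = 0.00194), and the lowest knockout library lay above the highest wild-type library. Like F13b it was lost under the clock covariate alone of the 25 settings. In females Serpind1 had 115, 97.7 and 145 CPM in tumours, 161, 163 and 163 in non-tumour liver and 129 and 70.9 CPM in wild type, where non-tumour liver lay above wild type at 0.70 ± 0.34 (edgeR adjusted p = 0.258).

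Cpb2, the carboxypeptidase that protects fibrin from plasmin, had 186, 130.2 and 268 CPM in knockout males and 72.0, 48.4 and 12.5 CPM in wild-type males. It rose, with a log2 fold change of 2.14 ± 0.65 (edgeR adjusted p = 0.033), and this rise remained past the threshold with the clock score as a covariate. Cpb2 had 249, 97.0 and 109 CPM in tumours, 429, 123 and 159 in non-tumour liver and 79.7 and 39.5 CPM in wild-type females. All 6 knockout female libraries lay above both wild-type females, at 1.99 ± 0.75 for non-tumour liver, which did not pass (edgeR adjusted p = 0.145). Leaving out knockout male 1 or 3, wild-type male 2 or 3, non-tumour liver 3 or wild-type female 3 ended the male call, at adjusted p of 0.0531 to 0.11.

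Serpinf2, alpha-2-antiplasmin, had 628, 576 and 633 CPM in knockout males and 362, 233 and 158 CPM in wild-type males. The groups did not overlap and Serpinf2 rose, with a log2 fold change of 1.29 ± 0.43 (edgeR adjusted p = 0.047), a call that held under 9 of 25 settings. It had 676, 189 and 275 CPM in tumours, 693, 389 and 741 in non-tumour liver and 382 and 379 CPM in wild-type females. The male call was kept without tumour 1, non-tumour liver 2 or wild-type male 1, and was lost without any 1 of the other 11 libraries, at adjusted p of 0.0508 to 0.163.

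Serpinc1, antithrombin, had 1971, 1741 and 2619 CPM in knockout males, 1618, 1525 and 1759 in tumours and 1937, 1837 and 1775 in non-tumour liver. In wild-type males it had 1931, 1816 and 786 CPM and in wild-type females 1485 and 909 CPM, and it passed in no comparison. The opposite-strand gene Zbtb37 overlaps 34.4% of its exon bases, and whether the counting used strand is not stated. Plg, plasminogen, had 340.2, 138 and 200.3 CPM in tumours, 543, 259 and 664 in non-tumour liver and 360.2 and 374 CPM in wild-type females. Tumours over non-tumour liver stood at −1.11 ± 0.47, with overlap, and Plg did not pass (edgeR adjusted p = 0.704). Males had 368, 246 and 660.5 CPM in knockouts and 438, 298 and 159 CPM in wild type.

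C3, on which the complement pathways converge, had 4527, 3405 and 5928 CPM in knockout males, 6969.8, 2223 and 2589.9 in tumours and 7098, 3253 and 4321 in non-tumour liver. C3 stood at 6017, 3592 and 1842 CPM in wild-type males and 2745 and 1574 CPM in wild-type females. Non-tumour liver lay above wild-type females in every library, tumours overlapped with both, male groups overlapped with each other, and C3 passed in no comparison. Cfi, the protease that inactivates cleaved C3, ranged over 62.8 to 529.9 CPM and passed in none either. Cfb had 0 to 38 counts per library, with the limit on its gene model given above.

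C6, the terminal component that binds the C5b fragment (chromosome 15, 4727175 to 4814967), had the largest log2 sex difference of the 38 genes in wild type. It had 96.1, 64.2 and 147 CPM in knockout males and 102, 122 and 55.2 CPM in wild-type males. In females it had 21.8, 4.21 and 14.1 CPM in tumours, 22.2, 14.2 and 11.4 in non-tumour liver and 4.43 and 5.06 CPM in wild type. Every male library lay above every female library of either genotype. C6 was higher in males by a log2 fold change of 4.29 ± 0.67 in wild type (edgeR adjusted p = 0.000849), a 19.6-fold difference that held under all 25 alternative settings. Between knockouts it was 2.68 ± 0.51 in males over non-tumour females (edgeR adjusted p = 0.0424).

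Knockout and wild type did not pass for C6 in either sex. The log2 fold change was 0.14 ± 0.48 in males (95% interval −0.90 to 1.18) and 1.75 ± 0.59 in non-tumour females over wild-type females (edgeR adjusted p = 0.111), where each knockout library was above both wild-type libraries. The difference between these effects was 1.61 ± 0.75 (edgeR adjusted p = 0.181). The call between knockout sexes held under 14 of 25 settings and was lost without any 1 library other than tumour 1 or 2, knockout male 2 or wild-type male 3, at adjusted p of 0.052 to 0.206.

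C9, the component that forms the wall of the terminal pore, had 273, 196 and 281 CPM in knockout males and 111, 101 and 66.0 CPM in wild-type males. It rose, with a log2 fold change of 1.43 ± 0.40 (edgeR adjusted p = 0.0209) with no overlap. Among females C9 had 209.5, 60.0 and 153 CPM in tumours, 211, 114 and 115 in non-tumour liver and 63.9 and 39.8 CPM in wild type. Non-tumour liver lay above wild type in every library at 1.50 ± 0.47, the smallest unadjusted p of the 38 in that comparison, and did not pass (edgeR adjusted p = 0.0778). The male call was lost without knockout male 1 or 3 or wild-type male 2 or 3, at adjusted p of 0.0602 to 0.0851, and with the clock covariate, where the log2 fold change was 2.13 and the adjusted p 0.0638.

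The C8 chains are made by C8a and C8b, adjoining genes on chromosome 4, and by C8g, which encodes a lipocalin. C8g had 513, 392 and 604 CPM in knockout males, 191, 249 and 271 in tumours and 236, 286 and 121 in non-tumour liver. Wild-type males had 379, 422 and 129 CPM and wild-type females 239 and 140.0 CPM. Knockout males exceeded every female library for C8g, and wild-type male 3 fell among the females. C8a ranged over 19.2 to 518 CPM and C8b over 5.35 to 214 CPM, a 27.0-fold and a 40.0-fold range. Both had their highest group mean in knockout males, and none of the C8 genes passed in any comparison. All 5 terminal genes had a log2 fold change above 0 in males over females, in both genotypes, but only C6 passed. Of all genes tested, 45.7% were above 0 in wild type and 48.8% in knockouts.

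Masp2, the lectin-pathway protease that cleaves C4 and C2 (chromosome 4, 148602554 to 148615499), passed in 4 of the 7 comparisons. It had 127, 105 and 166 CPM in knockout males, 68.2, 66.3 and 83.2 in tumours and 104, 118 and 109 in non-tumour liver. In wild-type males it had 61.5, 89.4 and 46.6 CPM and in wild-type females 164 and 162 CPM. Knockout males lay above wild-type males, tumours below non-tumour liver, and tumours and non-tumour liver below wild-type females, each without overlap. Masp2 rose in knockout males (1.01 ± 0.25, edgeR adjusted p = 0.0112) and fell in tumours against wild-type females (−1.17 ± 0.27, edgeR adjusted p = 0.0176).

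For non-tumour liver against wild-type females Masp2 was −0.56 ± 0.28 (edgeR adjusted p = 0.259), and for tumour against non-tumour −0.61 ± 0.25 (edgeR adjusted p = 0.695). It was lower in wild-type males than in wild-type females (−1.31 ± 0.28, edgeR adjusted p = 0.00421), and its knockout effect differed between sexes, females minus males, by −1.57 ± 0.37 (edgeR adjusted p = 0.0154). The opposite-strand gene Tardbp covers 54.9% of the exon bases of Masp2. Tardbp was itself −0.96 ± 0.22 in tumours over wild-type females (edgeR adjusted p = 0.0174), −0.91 ± 0.22 in wild-type males over females (edgeR adjusted p = 0.0104) and 0.20 ± 0.20 in knockout over wild-type males (edgeR adjusted p = 0.53). Without strand, reads of Masp2 and Tardbp cannot be told apart in the shared bases. The male call of Masp2 was lost with the clock covariate (0.82, adjusted p of 0.336), with the male groups fitted alone (adjusted p of 0.0776) and without knockout male 3 or wild-type male 1 or 3 (adjusted p of 0.0502 to 0.0625). The tumour call was lost without tumour 2 or either wild-type female (adjusted p of 0.077 to 0.176), the wild-type sex call without wild-type female 3 (0.0535), and the difference of effects without non-tumour liver 1 or 3, wild-type female 3 or wild-type male 1 (0.0533 to 0.0999).

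Mbl2, a mannose-binding lectin that recognises sugars on microbes, had 83.6, 45.4 and 43.4 CPM in tumours, 116, 146 and 212 in non-tumour liver and 263 and 116 CPM in wild-type females. Every tumour library lay below every other female library. Mbl2 fell in tumours against wild-type females, with a log2 fold change of −1.72 ± 0.45 (edgeR adjusted p = 0.0267). Against non-tumour liver it was −1.46 ± 0.41, the smallest unadjusted p of the 38 in that comparison, without passing over all genes (edgeR adjusted p = 0.665).

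Among males Mbl2 had 139.8, 102 and 264 CPM in knockouts and 98.1, 74.9 and 53.9 CPM in wild type. Knockout males lay above wild-type males without overlap, but Mbl2 did not pass there (1.16 ± 0.41, edgeR adjusted p = 0.0581). Its lower level in wild-type males than in wild-type females (−1.33 ± 0.45, edgeR adjusted p = 0.0438) held under 5 of 25 settings. It was kept without tumour 1 or knockout male 2 or 3, and was lost without any 1 of the other 11 libraries, at adjusted p of 0.0511 to 0.454. The tumour call was lost without tumour 2 or 3 or either wild-type female, at adjusted p of 0.0603 to 0.285. Mbl1, the other mannose-binding lectin gene of mice, ranged over 41.2 to 289.8 CPM and Masp1, the partner protease, over 50.1 to 148 CPM, and neither passed.

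C5ar1, the receptor for the C5a fragment, had 0, 5 and 15 counts in knockout males, 25, 34 and 26 in tumours and 32, 35 and 30 in non-tumour liver. In wild-type males it had 4, 20 and 26 counts and in wild-type females 7 and 5. The 6 knockout female libraries exceeded both wild-type females without passing, at 2.32 ± 1.14 for non-tumour liver (edgeR adjusted p = 0.256). The 13 macrophage markers summed to 185 to 374 CPM in tumours, 221 to 450 CPM in non-tumour liver and 105 to 113 CPM in wild-type females, and their part in C5ar1 was not tested. In bulk tissue fewer cells of a type and less RNA per cell cannot be told apart.

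Of the carriers, Alb had 40206, 41355 and 33615 CPM in knockout males, 45447, 30912 and 57158 in tumours and 52181, 49181 and 25765 in non-tumour liver. Wild-type males had 35829, 25786 and 15094 CPM and wild-type females 31668 and 28082 CPM. Alb kept a high level in tumours, whose libraries overlapped with those of non-tumour liver and of wild-type females, with a log2 fold change of 0.07 ± 0.42 against non-tumour liver (95% interval −0.82 to 0.97). Ttr ranged over 1455 to 5691 CPM, Trf over 533 to 3058 CPM, Ahsg over 758 to 8283 CPM and Fetub, fetuin-B, a protease inhibitor needed for fertilisation, over 492 to 2749.6 CPM. None of the 5 carriers passed in any comparison, and Trf was nearest in tumours over wild-type females at 1.49 ± 0.50 (edgeR adjusted p = 0.0732).

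Marker lists differed beside these results. The 10 hepatocyte markers summed to 8935 to 15560 CPM in knockout males against 4446 to 8193 CPM in wild-type males. There 8 of the 10 had a log2 fold change above 0 and 2 below. Those that edgeR called higher were 3 (30%, beside 14.3% of all genes), Ass1 and Arg1 among them. In tumours the hepatocyte markers summed to 10810 to 12630 CPM, in non-tumour liver to 10650 to 17350 CPM and in wild-type females to 6346 to 6915 CPM. Non-tumour liver over wild-type females had all 10 above 0. Tumours over wild-type females had 5 above 0 and 5 below, and tumours over non-tumour liver had 1 above and 9 below. The 10 endothelial markers summed to 145 to 202 CPM in knockout males against 294 to 471 CPM in wild-type males, and 5 were called lower. The 10 cholangiocyte markers summed to 711 to 1377 CPM in tumours, 458 to 599 CPM in non-tumour liver and 138 to 288 CPM in wild-type females. Most of these sums was Spp1, at 609, 766 and 1270 CPM in tumours and 488, 354 and 464 CPM in non-tumour liver. In tumours against non-tumour liver 6 of the 10 were above 0 and 4 below, with a median of 0.09 and none called. In knockout males the cholangiocyte sum was 65.2 to 356 CPM, and against non-tumour females 3 of the 10 were called lower, with all 10 below 0. In wild-type males against wild-type females 4 of 5 erythroid markers tested were called higher, with sums of 115 to 422 CPM and 60.7 to 72.8 CPM, and 3 of 10 endothelial markers were called higher, with sums of 294 to 471 CPM and 178 to 214 CPM. Cftr and Cldn4 of the cholangiocyte list were at 0 in some libraries, as were Timd4 and Gpnmb among the macrophage markers. Their part in the results was not tested.

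The enzymes of the vitamin K cycle, which make the modification that F2, F7, F9, F10, Proc and Pros1 need, included genes that changed in both sexes. Nqo1, a quinone reductase, rose on the log2 scale by 3.92 ± 0.37 in knockout males (edgeR adjusted p = 2.39e-05), by 3.10 ± 0.41 in non-tumour knockout females (edgeR adjusted p = 0.00268) and by 2.45 ± 0.40 in tumours against wild-type females (edgeR adjusted p = 0.00256). Ggcx, the gamma-glutamyl carboxylase that carries out the modification, had 41.5, 31.5 and 31.1 CPM in knockout males, 29.8, 34.4 and 34.3 in tumours and 36.3, 33.9 and 21.2 in non-tumour liver. Wild-type males had 15.1, 19.0 and 13.5 CPM and wild-type females 66.6 and 93.0 CPM, so the wild-type males were the lowest and the wild-type females the highest of the 14 libraries.

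Ggcx rose in knockout males (1.13 ± 0.24, edgeR adjusted p = 0.00453) and fell in non-tumour knockout females (−1.39 ± 0.26, edgeR adjusted p = 0.0141), a difference between the sexes of −2.52 ± 0.35, females minus males (edgeR adjusted p = 0.000828). In tumours against wild-type females Ggcx fell as well (−1.28 ± 0.26, edgeR adjusted p = 0.00801), and in wild-type males it was lower than in wild-type females (−2.33 ± 0.26, edgeR adjusted p = 5.93e-05). Vkorc1, the warfarin-sensitive epoxide reductase, also rose in knockout males (1.50 ± 0.32, edgeR adjusted p = 0.00517), though 47.7% of its exon bases lie in other genes. Of the 5 genes in the list 4 (80%) were called higher in knockout males, the remaining one of them being Vkorc1l1, where 14.3% of all genes were, and in each of the 2 female knockout comparisons 1 was higher and 1 lower. None passed in tumours against non-tumour liver or between knockout sexes.

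Of 23 other coagulation genes, 4 rose and 2 fell in knockout males, which is 26.1% called beside 20.6% of all genes. Those that rose were Proz, protein Z (1.49 ± 0.28, edgeR adjusted p = 0.00226), F2r, a thrombin receptor (2.46 ± 0.52, edgeR adjusted p = 0.00455), Hrg, a histidine-rich plasma protein (1.74 ± 0.47, edgeR adjusted p = 0.0173), and F3, tissue factor. Serpine2, a thrombin inhibitor, and Vwf, the platelet adhesion factor of endothelium, were the 2 that fell. In tumours against wild-type females 2 rose and none fell (8.70%, beside 9.61% of all genes). They were Anxa2, which binds plasminogen at cell surfaces (3.11 ± 0.55, edgeR adjusted p = 0.00455), and Vwf (1.71 ± 0.51, edgeR adjusted p = 0.0471). Between wild-type sexes Serpine2 was higher in males, and Proz and F3 were lower. The knockout effect, females minus males, was higher for Anxa2 and lower for Proz (−1.60 ± 0.41, edgeR adjusted p = 0.0228). None passed in the other 3 comparisons.

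Of 30 other complement genes tested, 4 rose and 1 fell in knockout males, which is 16.7% called beside 20.6% of all genes. Those that rose were C2 (2.22 ± 0.22, edgeR adjusted p = 4.10e-05), with 46.9% of its exon bases shared with other genes, the macrophage complement receptor Vsig4 (1.92 ± 0.52, edgeR adjusted p = 0.0175), and the classical pathway proteases C1s1 and C1ra. Cd59a, which blocks the terminal pore on host cells, fell (−0.99 ± 0.28, edgeR adjusted p = 0.0219). C1qa, a chain of C1q made by macrophages, was the 1 gene that rose in non-tumour knockout females (1.94 ± 0.44, edgeR adjusted p = 0.0276) and the 1 that rose in tumours against wild-type females (2.09 ± 0.45, edgeR adjusted p = 0.0111). Wild-type males were higher than wild-type females for 3 genes, Cfd, Cd59a and C1qa, and lower for C2 and C1s1. The knockout effect, females minus males, was higher for Itgam and C1qa and lower for C2 and C1s1. None passed in tumours against non-tumour liver or between knockout sexes.

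Of 21 other plasma protein genes, 2 rose in knockout males (9.52%, beside 20.6% of all genes), Serpina6 and Gc, and the same 2 genes, Serpina6 and Afm, fell in both female knockout comparisons, which share their wild-type libraries (9.52% in each, beside 4.16% of all genes for non-tumour liver and 9.61% for tumours). Serpina6 encodes the corticosteroid carrier, Gc the vitamin D carrier and Afm the vitamin E carrier afamin. Serpina6 stood at 2.70 ± 0.61 in knockout males (edgeR adjusted p = 0.00787) and −2.58 ± 0.64 in non-tumour females (edgeR adjusted p = 0.041), a difference of −5.28 ± 0.88, females minus males (edgeR adjusted p = 0.00303). Serpina6 had 121, 159 and 124 CPM in knockout males and 22.9, 18.3 and 20.8 CPM in wild-type males. It had 52.5, 173 and 81.0 CPM in non-tumour liver and 1085 and 135 CPM in wild-type females, so the female groups overlapped and wild-type female 2 stood far above all other libraries. The fall in females and the difference between the sexes were not tested without that library. Afm had −1.34 ± 0.33 in non-tumour females (edgeR adjusted p = 0.0356) and −1.37 ± 0.33 in tumours (edgeR adjusted p = 0.0198). In wild type 3 genes were lower in males, Serpina6, Afm and A1bg, and the knockout effect was lower in females than in males for 2, Serpina6 and Afm. None passed in tumours against non-tumour liver or between knockout sexes.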

How the data were processed

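Liver RNA was sequenced and the authors deposited 1 table for all libraries, with counts per gene, FPKM and gene length. Counts are raw reads per gene made with featureCounts 1.5.0-p3 after alignment with HISAT2 2.0.5 to GRCm38, per the submitters' processing notes. The strand setting and the handling of reads in overlapping genes are not given in the sources used here. FPKM values were deposited by the authors beside the counts and served here only to check the order of levels. Gene length, also deposited, gave CPM per kilobase.

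CPM were computed from counts with TMM-scaled library sizes. Tests used edgeR 4.0.16 (quasi-likelihood F test, robust, two-sided, 1 fit of all 14 libraries in 5 groups, filterByExpr, R 4.3.3), with Benjamini-Hochberg adjustment over 17874 genes and a threshold of 0.05, and the fit was tested on simulated data. The common biological coefficient of variation was 0.442, so small differences in groups of 2 or 3 are not detectable. The standard error of a log2 fold change is its size divided by the square root of F. Alternatives were other scalings and filters, DESeq2 1.42.0, limma 3.58.1 (voom), the groups of a comparison alone, a replicate block, a clock-gene covariate, removal of mitochondrially encoded genes, and each library left out in turn. The replicate block gave each library number 1 effect shared by all 5 groups, so it is not a paired test of tumour against non-tumour tissue. Exon overlap was taken from the GENCODE annotation, and figures were drawn with matplotlib 3.10.9 in Python 3.11.15.

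The clock score is the mean log2 level of evening-peaking genes minus that of morning-peaking genes. Equal numbers of tumour and non-tumour tissue were read as pairs because their deviations from group means correlated over 10229 genes (r = 0.472, 0.367 and 0.32), which does not come from the labels. The members and gene lists were chosen with earlier results of these data known. Library values are given for members past the threshold in any comparison, for the member of each role with the highest level per kilobase, for the 3 smallest unadjusted p where none passed, and for C5ar1. From the other lists up to 3 genes per list and comparison are given with values, and further genes of short counts by name.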

Additional observations from a re-analysis of the deposited data

Results flagged for a closer look

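For 2 genes the knockout effect in females differed from that in males by a test of the difference itself. F13b had a log2 fold change of −0.11 ± 0.36 in non-tumour knockout females over wild-type females and 1.66 ± 0.34 in knockout over wild-type males, a difference of −1.76 ± 0.49 (SE; edgeR adjusted p = 0.032). Masp2 had −0.56 ± 0.28 in females and 1.01 ± 0.25 in males, a difference of −1.57 ± 0.37 (edgeR adjusted p = 0.0154). With the replicate block F13b no longer passed, at an adjusted p of 0.0531. The clock score differed between knockout and wild-type males without overlap, and with it as a covariate neither call passed: the difference was −1.23 for F13b (adjusted p of 0.183) and −1.42 for Masp2 (adjusted p of 0.0927). Masp2 shares 54.9% of its exon bases with Tardbp.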

How the results depend on the processing

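Of the 17 calls on single genes, each under 25 alternatives, 291 of 425 kept their call, 134 lost it and 0 reversed. The clock covariate ended 10 of the 17 calls, upper-quartile scaling 6 and DESeq2 1. C6 between wild-type sexes kept its call under all 25, and Serpind1 and F13b in males and Masp2 between wild-type sexes under 24. Counts of the 38 genes called moved as follows, and the cause was not tested. The shares of all genes called under each alternative are not given here, so these counts stand without a background. For the difference of the knockout effect (2), the count was 1 with upper-quartile scaling, a filter of 1 CPM, the replicate block, knockout female number 1 left out, the clock covariate or mitochondrially encoded genes removed, and 6 with no filter. For non-tumour liver against wild-type females (0), it was 7 with no filter, 5 with DESeq2, 8 with limma-voom, 2 with the compared groups alone and 1 without knockout female number 1. For tumour against non-tumour tissue (0), it was 2 with no filter and 0 with the replicate block. For tumour against wild-type females (3), it was 10 with no filter and 7 with limma-voom, by genes gained in both directions. It was 6 with DESeq2 and 5 with the clock covariate, where all genes gained were higher in tumours. For knockout males against non-tumour females (1), it was 0 with upper-quartile scaling, 4 with no filter or limma-voom, and 2 with DESeq2, without knockout female number 1 or with the clock covariate. For knockout against wild-type males (7), it was 4 with the compared groups alone and 2 with the clock covariate. For wild-type males against females (4), it was 9 with no filter, 8 with DESeq2 and 7 without knockout female number 1. Leaving out 1 library at a time gave 0 to 2, 0 to 2, 0 to 0, 0 to 5, 0 to 1, 2 to 8 and 1 to 7 genes in the same order of comparisons. Leaving out a wild-type female leaves 1 library, assumed to vary like the other groups. The replicate block ended 2 calls, F13b in the difference and Mbl2 between wild-type sexes, where F7 and F11 were gained (5 genes), and moved no other count by more than 1.5 times. C5ar1 and Cfb had at most 38 counts in a library, so counting error adds to the spread between libraries there.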

Other observations

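Of 17 transcription factors and receptors that act on liver genes, 5 rose and 1 fell in knockout males (35.3% called, beside 20.6% of all genes). In non-tumour knockout females 4 fell (23.5%, beside 4.16% of all genes) and in tumours against wild-type females 7 fell (41.2%, beside 9.61%). Prox1, a hepatocyte and lymphatic factor, was 0.94 ± 0.19 in knockout males (edgeR adjusted p = 0.00346) and −0.87 ± 0.21 in non-tumour females (edgeR adjusted p = 0.0312). Il6ra, the interleukin-6 receptor chain, rose in knockout males (1.87 ± 0.33, edgeR adjusted p = 0.00157). In wild-type males 6 of the 17 were lower and 1 higher than in wild-type females, and none passed in tumour against non-tumour tissue or between knockout sexes. The difference of the knockout effect, females minus males, was below 0 for 6 called genes and above 0 for 1.

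Of 16 other acute-phase genes, Orm3 alone rose in knockout males (4.15 ± 1.29, edgeR adjusted p = 0.0452), and Hp, haptoglobin, alone was higher in wild-type males than in wild-type females (2.37 ± 0.80, edgeR adjusted p = 0.0435). None passed in the other 5 comparisons, with medians of 1.86 in non-tumour females and 1.54 in tumours, each over wild-type females.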
